A study of Mus musculus with 8 samples.

Results

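Loss of Hdac3 was examined in undifferentiated mouse embryonic stem cells (ESCs) before any Xist induction, as the difference in gene expression between Hdac3KO and wild-type (WT) cells at 0 h of doxycycline (DOX). The comparison rests on 4 of the 8 RNA sequencing samples of the series, namely 2 WT and 2 Hdac3KO samples taken without DOX. The other 4 samples are the same cells after 24 h of DOX and serve here as separate libraries in which the genes called before DOX could be looked up. All cells are TX1072, a female hybrid ESC line of C57BL/6 and Cast origin with a DOX-inducible Xist promoter on 1 X chromosome. They were grown on gelatin with serum, LIF and 2 kinase inhibitors (2i). The Hdac3KO cells are 2 independent clones in which pairs of Cas9 guides had deleted exons of Hdac3, and the labels do not tell which clone carries which replicate number. The WT samples are duplicates of the parental line, so the spread within WT holds no difference between clones while the spread within Hdac3KO does, and effects of Hdac3 loss cannot be told apart from changes that came with cloning and are common to both clones. The methods of the study also state that 1 mutant line contained some cells with a single X chromosome.

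HDAC3 is a class I histone deacetylase. It removes acetyl groups from histone tails and is the catalytic subunit of the NCoR and SMRT corepressor complexes, which DNA-bound repressors and nuclear receptors bring to promoters and enhancers. ESCs in 2i and LIF are held in the naive state by the blocking of the MEK kinase and of GSK3, the latter keeping beta-catenin active, and they transcribe many developmental regulators at low levels.

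Between 11857275 and 17125156 reads fell on genes in the 4 samples before DOX. A total of 12969 genes had at least 1 CPM, a read count scaled to the size of its library, in 2 or more of the 4 samples, and edgeR's quasi-likelihood method was applied to these. A gene was called raised or lowered when its Benjamini-Hochberg adjusted p lay under 0.05 and its absolute log2 fold change above 1, and fold changes are Hdac3KO over WT throughout, given with the standard error of the fit. CPM values are scaled by the TMM method and compare samples for a gene, not genes with each other. The clones differed on chromosome 16. There the median share of allelic reads from the C57BL/6 copy was 0.341 and 0.333 in WT and 0.333 in Hdac3KO clone 1, but 0.5 in clone 2, whose 415 tested genes on this chromosome had a median log2 fold change of -0.46 against the WT mean, compared with -0.02 in clone 1. On each other autosome and on the X chromosome the median share lay between 0.479 and 0.523 in all 4 samples. The share on chromosome 16 was thus unlike the other chromosomes in WT and clone 1, and like them in clone 2. The cause was not tested. Named genes called on chromosome 16 are given with the values of both clones.

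Hdac3 itself had 37.9 and 42.6 CPM in WT and 5.86 and 7.46 CPM in Hdac3KO, a log2 fold change of -2.60 ± 0.18 (adjusted p = 0.000586). The remaining 98 and 87 reads fell somewhere on exons of the gene, and the counts do not show on which. Both germline genes that served as markers of the comparison were higher in the knockout. Dazl, which encodes an RNA-binding protein of germ cells, had 51.6 and 76.9 CPM in WT and 494 and 554 CPM in Hdac3KO (log2 fold change 3.03 ± 0.18, adjusted p = 0.000501). Brdt, the testis-specific bromodomain protein, had 0.972 and 1.25 CPM in WT and 23.16 and 21.01 CPM in Hdac3KO (4.31 ± 0.24, adjusted p = 0.000501). For both genes every knockout sample lay above every WT sample, as for all 353 raised genes.

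All 4 samples carried the markers of ESCs. Pou5f1, Nanog, Sox2, Esrrb, Zfp42, Klf4, Tfcp2l1 and Dppa5a lay between 212 and 1648 CPM in every sample, their summed level was 4952 and 4915 CPM in WT and 5949 and 5633 CPM in Hdac3KO, and 0 of the 8 were called. Of 28 genes listed for naive pluripotency, 1 rose and 1 fell (3.57% each). Among all genes tested, 2.72% were raised and 3.81% lowered. Tbx3, a T-box factor of the naive network, rose from 453 and 477 CPM to 1160 and 1040 CPM (1.24 ± 0.09, adjusted p = 0.00066), and the one that fell, Dppa3, is described below. Nanog, the homeobox factor of the naive network, had a log2 fold change of 0.68 ± 0.09 and an adjusted p of 0.00543, so that it passed the p threshold but not the fold limit. Markers of other cell types were few and low. The summed level ran from 13.6 to 14.4 CPM in WT and from 17.2 to 26.0 CPM in Hdac3KO for 7 primitive endoderm markers, with 1 raised (Dab2) and 1 lowered (Sox7), from 138 to 162 and from 148 to 154 CPM for 10 trophoblast markers with 0 called, and from 29.8 to 71.2 and from 47.4 to 69.0 CPM for 5 mesoderm markers with 0 called and Mesp1 at 0 in all 4 samples. Fibroblast markers summed to between 40.8 and 54.1 CPM in WT and between 29.1 and 40.7 CPM in Hdac3KO with 0 of 8 called. In bulk samples, fewer cells of a type and less RNA per cell cannot be told apart.

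Before DOX, 494 genes (3.81% of those tested) were lowered and 353 (2.72%) were raised in Hdac3KO, 847 (6.53%) in all. The lowered genes had a median fold of 2.97 and 135 of them fell by more than 4-fold; the raised genes had a median fold of 2.95 with 101 above 4-fold. The median level of the lowered genes was 10.8 CPM in WT and 3.82 CPM in Hdac3KO. For the raised genes it was 3.26 CPM in WT and 9.82 CPM in Hdac3KO. The call itself favors this order within each group of samples. The median over all genes tested was 21.9 CPM in WT, and the median log2 fold change of all genes was 0.0023. Both clones lay on the called side of the WT mean for all 494 lowered and all 353 raised genes, which the call itself favors, with medians of -1.33 and -1.496 in clones 1 and 2 for the lowered genes and of 1.41 and 1.31 for the raised genes. The groups did not overlap in any of the 494 lowered or 353 raised genes, which the call favors too. Over all genes tested, both knockout samples lay below both WT samples in 30.3% and above them in 29.8%. The number of calls depended on the samples. Leaving out WT replicate 1 or 2 gave 296 and 275 calls, of which 166 and 173 were lowered. Leaving out Hdac3KO clone 1 gave 1298 calls (944 lowered) and leaving out clone 2 gave 1074 (574 lowered), so lowered genes outnumbered raised ones in each of these fits. With 1 sample in a group, that sample is assumed to vary like the other group.

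**Figure D1:**
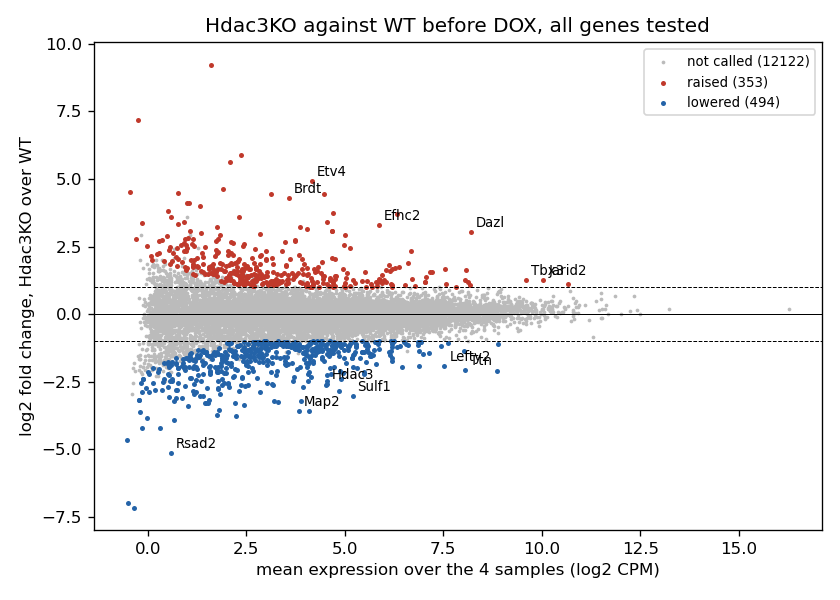
Each point is 1 of the 12969 genes tested, with its mean expression over the 4 samples before DOX (log2 CPM) on the horizontal axis and its log2 fold change, Hdac3KO over WT, on the vertical axis; dashed lines mark the fold limit. The 494 lowered genes (blue) and 353 raised genes (red) sit on both sides of a cloud of genes centered near 0, and Dazl, Brdt and Etv4 are among those far above it while Hdac3, Map2 and Sulf1 are far below.

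The 10 lowered genes with the smallest adjusted p beside Hdac3 itself range from matrix enzymes to neuronal and germ cell proteins. Sulf1, an extracellular enzyme that trims sulfate from heparan sulfate chains and thereby alters growth factor binding, had 67.9 and 62.9 CPM in WT and 7.12 and 9.09 CPM in Hdac3KO (log2 fold change -3.02 ± 0.16, adjusted p = 0.000501). Map2, which binds microtubules in dendrites, had 25.2 and 27.5 CPM in WT and 2.45 and 1.89 CPM in Hdac3KO (-3.58 ± 0.21, adjusted p = 0.000501). Dppa3, also called Stella, a maternal factor that protects methylation in the zygote and a marker of naive cells and germ cells, had 76.3 and 71.7 CPM in WT and 15.0 and 17.1 CPM in Hdac3KO (-2.21 ± 0.13, adjusted p = 0.000501). In each of the 3 genes the groups were apart by many times the spread within them, which a choice by the smallest adjusted p favors. The other 7 had log2 fold changes between -2.70 and -2.12, all with an adjusted p of 0.000586. They are Dnajc6 (auxilin, which uncoats clathrin vesicles), Plekha2 (a phosphoinositide-binding adaptor), Ebf1 (a transcription factor of B cells and neurons), Elmo1 (a partner of the Rac exchange factor DOCK1), F2rl1 (a protease-activated receptor), Emb (embigin, a chaperone of monocarboxylate transporters) and Ctnnd2 (delta-catenin, a neuronal partner of cadherins). F2rl1 may serve as the example, with 25.5 and 27.5 CPM in WT and 4.19 and 3.94 CPM in Hdac3KO (-2.70 ± 0.18). All 10 were also called lowered in the libraries at 24 h of DOX, with log2 fold changes from -3.06 to -2.06.

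Of the 494 lowered genes, 190 (38.5%) fell into one of 35 gene lists made for this comparison, and of the 353 raised genes 104 (29.5%). Among all 12969 genes tested, 1354 were in a list. The lists were chosen with earlier results of these data known, so their counts describe the samples and are no independent evidence. The number of tested members called in a list is to be read against the shares among all genes, 3.81% lowered and 2.72% raised.

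**Figure D2:**
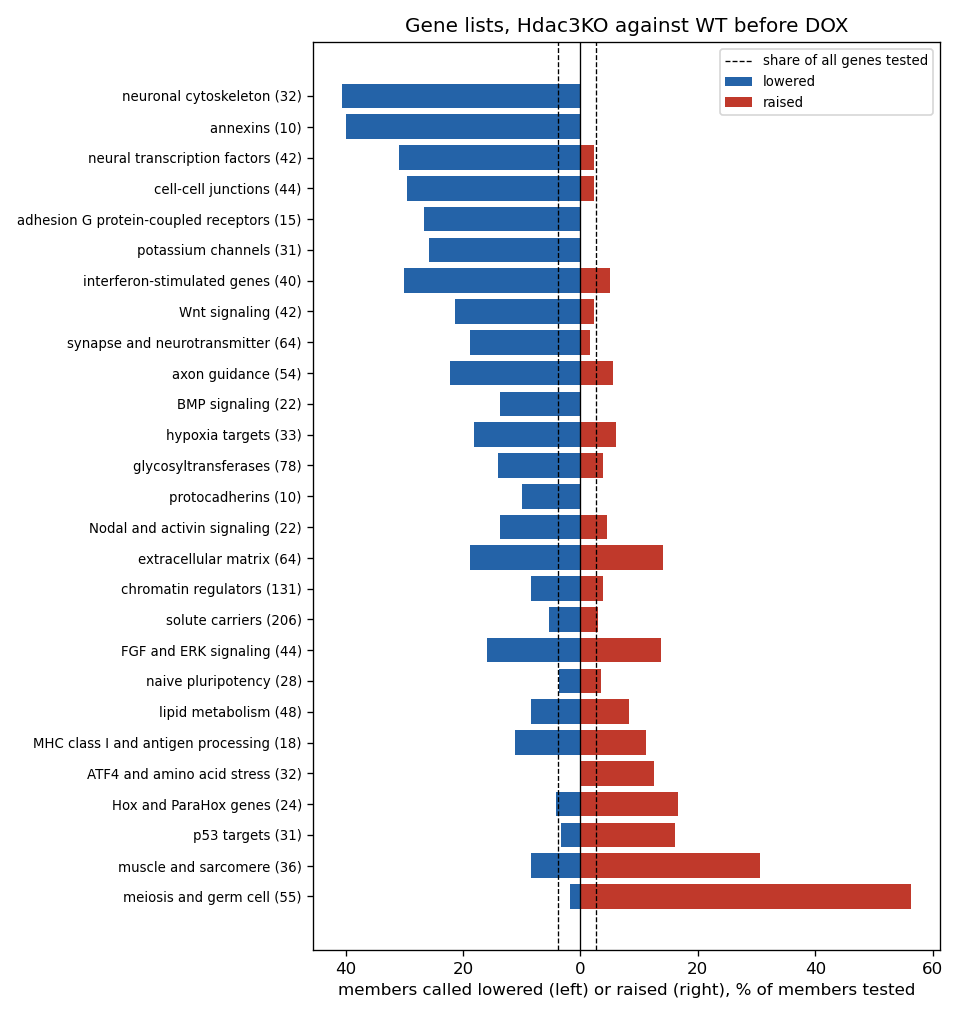
Bars give the percentage of tested members called lowered (blue, left) or raised (red, right) in Hdac3KO before DOX for 27 lists with 10 or more tested members, whose number is given in parentheses; dashed lines are the shares among all genes tested. Neuronal cytoskeleton (40.6% lowered) and annexins (40%) stand at the top and meiosis and germ cell genes (56.4% raised) at the bottom.

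Genes from lists named for neurons made up a large block on the lowered side, though not all are specific to neurons. The neuronal cytoskeleton list holds mainly microtubule-associated proteins, stathmins, intermediate filaments and collapsin response mediators. Of its 32 tested genes 13 fell (40.6%) and 0 rose, and the median log2 fold change of the list was -0.69. Beside Map2 these were Vim, Map1a, Stmn1, Stmn2, Dpysl2, Dpysl3, Dpysl4, Dpysl5, Crmp1, Tppp3, Dbn1 and Ina. Vim, the intermediate filament vimentin, had 190 and 223 CPM in WT and 82.3 and 68.7 CPM in Hdac3KO (-1.45 ± 0.13, adjusted p = 0.00131). Stmn1, which destabilizes microtubules and is also abundant in dividing cells, had 154 and 160 CPM in WT and 78.0 and 75.9 CPM in Hdac3KO (-1.03 ± 0.09, adjusted p = 0.00151). Dpysl2 and Dpysl5, collapsin response mediators that act downstream of semaphorins, had log2 fold changes of -1.48 ± 0.15 and -2.15 ± 0.24. The groups did not overlap in any of these 4 genes, as in all 494 lowered genes. Not every member moved down: Map4, the ubiquitous microtubule-associated protein, had 613 and 624 CPM in WT and 796 and 827 CPM in Hdac3KO (0.39 ± 0.08), under the fold limit. Of the 13 lowered members, 10 were also called at 24 h. Leaving out WT replicate 1 or 2 gave 8 lowered in each case, and requiring 1 CPM in all 4 samples gave 8.

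Transcription factors of the neural lineage were lowered as well. Among 42 tested, 13 were lowered (31.0%) and 1 was raised, with a list median of -0.83. Ebf1 had 39.7 and 37.4 CPM in WT and 7.60 and 8.66 CPM in Hdac3KO (-2.25 ± 0.16). Sall3, a zinc finger factor of the Spalt family, had 120 and 104 CPM in WT and 36.7 and 35.9 CPM in Hdac3KO (-1.62 ± 0.12, adjusted p = 0.00066). Olig3, a basic helix-loop-helix factor of the dorsal spinal cord, was low in WT at 5.53 and 7.16 CPM and almost absent in Hdac3KO at 0.538 and 0.514 CPM, from 9 and 6 reads (-3.56 ± 0.38, adjusted p = 0.00235). Gli3, a transducer of Hedgehog signals, and Mitf, the melanocyte factor, had log2 fold changes of -1.30 ± 0.12 and -1.42 ± 0.16. Others that fell were Gbx2, En2, Sox1, Pou4f2, Nfix, Sox11 and Irx4, and the one that rose was Lhx6, a factor of cortical interneurons. Sall1, a relative of Sall3 expressed at 400 and 343 CPM in WT and 202 and 171 CPM in Hdac3KO, missed the fold limit at -0.99 ± 0.12. At 24 h, 12 of the 13 were called lowered again. The count was 6 and 7 without WT replicate 1 or 2.

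Of the 3 tested neural markers, Sox1, which labels neural progenitors, fell from 5.75 and 5.33 CPM to 1.26 and 2.23 CPM (-1.70 ± 0.36, adjusted p = 0.0228). Tubb3 and Nes, both expressed in neural cells, had log2 fold changes of -0.95 ± 0.22 and -0.51 ± 0.14 and were not called. The summed level of the 6 markers was 81.0 and 86.8 CPM in WT and 44.3 and 55.1 CPM in Hdac3KO. Its part in the neuronal lists was not tested.

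Axon guidance genes, the ligands and receptors that steer growing axons and many other migrating cells, held 12 lowered and 3 raised among 54 tested (22.2% and 5.56%), with a median of -0.34. Among the ligands, Slit2 had 14.8 and 16.8 CPM in WT and 3.11 and 3.60 CPM in Hdac3KO (-2.24 ± 0.22, adjusted p = 0.0018). The semaphorins Sema7a and Sema5a had log2 fold changes of -1.32 ± 0.14 and -2.12 ± 0.26, and Sema3c and Sema6c were lowered too. On the receptor side Nrp2, a neuropilin for class 3 semaphorins, went from 66.5 and 73.0 CPM to 22.4 and 30.8 CPM (-1.40 ± 0.17, adjusted p = 0.00339), and Plxnb1, Plxnc1, Robo1, Unc5b, Epha7 and Ephb2 were called lowered as well. Robo1, a receptor for Slit ligands, lies on chromosome 16 and had 55.8 and 55.0 CPM in WT, 25.7 CPM in clone 1 and 13.6 CPM in clone 2. Draxin, Plxna4 and Robo4 were the raised members. The best expressed members stayed uncalled: Plxna1 had 375 and 386 CPM in WT and 411 and 402 CPM in Hdac3KO (0.10 ± 0.08), and Epha4 had 161 and 194 CPM in WT and 186 and 326 CPM in Hdac3KO (0.53 ± 0.24, adjusted p = 0.178). Of the 12 lowered, 7 were called at 24 h. Counts of lowered members were 6 and 4 without WT replicate 1 or 2, and 18 without clone 1; the count was 11 without chromosomes 16 and X. Raised members numbered 1 and 0 without WT replicate 1 or 2.

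Ion channels and synaptic genes are transcribed at low levels in ESCs. Potassium channel genes, which include pore-forming and accessory subunits, had 8 lowered (25.8%) and 0 raised of 31 tested, with a list median of -0.86. Of the 31, 1 is Kcnq1ot1, a noncoding RNA from within Kcnq1 rather than a channel. Its own log2 fold change of -0.86 ± 0.24, which was not called, is the list median. At 24 h Kcnq1ot1 had 0.52 ± 0.11. Kcnab2, an accessory beta subunit, had 6.28 and 6.24 CPM in WT and 1.02 and 0.514 CPM in Hdac3KO (-2.96 ± 0.39, adjusted p = 0.00439). Kcnk1, a 2-pore leak channel, had 24.5 and 23.2 CPM in WT and 10.3 and 6.17 CPM in Hdac3KO (-1.52 ± 0.24, adjusted p = 0.00842). Kcnh2, the channel of cardiac repolarization, and Kcnn2, a calcium-activated channel, had -1.75 ± 0.28 and -1.10 ± 0.20. The channel result was the least stable of the neuronal lists, with 0 and 3 members lowered when WT replicate 1 or 2 was left out, 13 when either clone was left out, 5 with DESeq2 and 3 when 1 CPM was required in all samples.

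Among 64 tested genes of synapses and neurotransmission, 12 fell (18.8%) and 1 rose (Chrnb4, a nicotinic receptor subunit), but the list median of -0.18 lay nearer to 0, with 0.00 in clone 1 and -0.34 in clone 2. Gad1, the enzyme that makes the inhibitory transmitter GABA, had 8.07 and 10.9 CPM in WT and 1.496 and 1.458 CPM in Hdac3KO (-2.67 ± 0.30, adjusted p = 0.00273). Shank3, a scaffold of the postsynaptic density, had 18.4 and 16.6 CPM in WT and 5.33 and 4.29 CPM in Hdac3KO (-1.85 ± 0.20, adjusted p = 0.00266). Cacnb3, a calcium channel subunit, was at -1.31 ± 0.15. In Gad1, Shank3 and Cacnb3, as in all lowered genes, the knockout samples lay below both WT samples. At 24 h, 4 of the 12 were called lowered. Leaving out WT replicate 1 or 2 gave 4 and 6 lowered, DESeq2 called 8, and 7 were raised without clone 2.

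**Figure D3:**
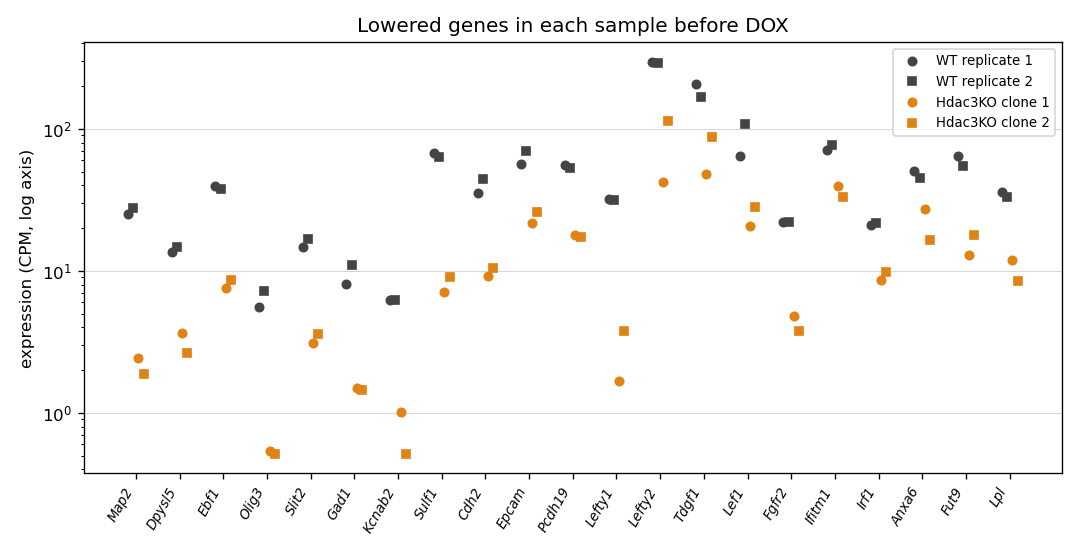
Expression of 21 lowered genes in CPM on a log axis in each of the 4 samples before DOX (gray, WT replicates 1 and 2; orange, Hdac3KO clones 1 and 2). In all 21 genes, as in all 494 lowered genes, both knockout samples lie below both WT samples. The clones lie closely together for Map2, Ebf1 and Pcdh19 and with a wider gap for Lefty1, Lefty2 and Tdgf1.

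Adhesion molecules that hold epithelial cells together were also lowered. Of 44 tested genes for cell-cell junctions 13 fell (29.5%) and 1 rose (Cldn19, a claudin), with a list median of -0.56. The classical cadherins gave a graded picture. Cdh2 (N-cadherin) had 35.4 and 44.2 CPM in WT and 9.21 and 10.6 CPM in Hdac3KO (-2.01 ± 0.17, adjusted p = 0.0012), Cdh3 (P-cadherin) was at -2.04 ± 0.22, and Cdh1 (E-cadherin), the cadherin of ESC colonies, had 335 and 361 CPM in WT and 213 and 283 CPM in Hdac3KO and was not called (-0.49 ± 0.14, adjusted p = 0.0542). Epcam, an epithelial adhesion molecule, had 56.9 and 69.9 CPM in WT and 21.5 and 25.9 CPM in Hdac3KO (-1.42 ± 0.16, adjusted p = 0.00266). Further members that fell were the gap junction connexins Gjb1 and Gjb5, the desmosomal proteins Dsp and Pkp2, the nectin-family proteins Pvr and Nectin3, the polarity protein Crb2 and the claudin Cldn6. Among them Pkp2 and Nectin3 lie on chromosome 16. Pkp2 had 47.7 and 49.9 CPM in WT, 26.0 CPM in clone 1 and 11.8 CPM in clone 2, and Nectin3 had 100.3 and 106 CPM in WT, 54.3 CPM in clone 1 and 32.8 CPM in clone 2. Cxadr, the coxsackievirus and adenovirus receptor of tight junctions, lies there too. It had 61.4 and 65.5 CPM in WT, 20.2 CPM in clone 1 and 11.5 CPM in clone 2 (-1.98 ± 0.23). A part of the chromosome-wide difference between the clones in these values was not tested. At 24 h 10 of the 13 were called lowered. Without chromosomes 16 and X 9 were called, and without WT replicate 1 or 2 the count was 6 each.

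Related surface molecules showed smaller counts. Of 10 tested protocadherins 1 fell, the X-linked Pcdh19, from 55.8 and 52.8 CPM to 18.01 and 17.41 CPM (-1.61 ± 0.13, adjusted p = 0.000875), although the list median was -0.83. Among 15 adhesion G protein-coupled receptors 4 fell (26.7%) and 0 rose. Adgrg6, needed for myelination by Schwann cells, had 28.4 and 25.3 CPM in WT, 1.20 CPM in clone 1 and 4.89 CPM in clone 2 (-3.23 ± 0.47, adjusted p = 0.00626). Adgrl2, a latrophilin, was at -1.03 ± 0.19, and Adgrg1 and Adgrg5 were lowered from below 4 CPM in WT. Annexins, calcium-dependent proteins of membrane surfaces, had 4 of 10 lowered (40%) and 0 raised. Anxa6 had 50.7 and 44.9 CPM in WT, 27.3 CPM in clone 1 and 16.4 CPM in clone 2 (-1.11 ± 0.23, adjusted p = 0.0193), Anxa4 was at -1.35 ± 0.27, and Anxa1 and Anxa2 at -3.05 ± 0.50 and -2.85 ± 0.51 on fewer than 10 reads per knockout sample. All 4 were called at 24 h, but 0 of them passed when either WT replicate was left out; for the adhesion receptors the counts were then 2 and 1.

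Extracellular matrix genes went both ways, with 12 lowered (18.8%) and 9 raised (14.1%) of 64 tested. On the lowered side, Lamb1, the laminin beta 1 chain, had 61.3 and 66.1 CPM in WT and 21.5 and 19.6 CPM in Hdac3KO (-1.63 ± 0.13, adjusted p = 0.000875), and Col27a1, a fibrillar collagen, was at -1.90 ± 0.20. Heparan sulfate proteoglycans were split. Gpc4, a glypican on the X chromosome, rose from 47.3 and 35.4 CPM to 151 and 154 CPM (1.88 ± 0.15, adjusted p = 0.000857) and the syndecan Sdc4 rose, whereas Gpc1, Gpc3 and Gpc6 fell together with the sulfatase Sulf1. Col9a2, a cartilage collagen, rose from 9.12 and 5.74 CPM to 58.4 and 54.7 CPM (2.92 ± 0.21, adjusted p = 0.00066). Fibronectin, Fn1, by far the best expressed member, had 3515 and 2994 CPM in WT and 3018 and 3540 CPM in Hdac3KO, and these ranges overlap. Without WT replicate 1 or 2 the lowered count was 6 each and the raised count 4 and 3.

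Several signaling pathways of the early embryo contained lowered genes, mostly ligands, co-receptors and targets. In the Nodal and activin pathway, a branch of TGF-beta signaling active in ESCs, 3 of 22 tested members fell (13.6%) and 1 rose (4.5%). With no fold limit, 8 members passed the p threshold downward and 2 upward, against 7.52% and 6.57% of all genes tested. Lefty1 and Lefty2 are secreted Nodal antagonists that Nodal itself induces. Lefty1 had 31.8 and 31.3 CPM in WT, 1.68 CPM in clone 1 and 3.77 CPM in clone 2 (-3.59 ± 0.31, adjusted p = 0.00118). Lefty2 had 295 and 289 CPM in WT, 42.0 CPM in clone 1 and 114 CPM in clone 2 (-1.92 ± 0.38, adjusted p = 0.0173). Tdgf1, the Nodal co-receptor Cripto, had 206 and 167 CPM in WT, 48.1 CPM in clone 1 and 88.0 CPM in clone 2 (-1.46 ± 0.25, adjusted p = 0.0116). All 3 were lower in clone 1 than in clone 2, and all 3 were called at 24 h, at -3.33, -1.98 and -1.55. Inhbb, an activin subunit, was raised at 1.46 ± 0.39 (adjusted p = 0.0456) and not called at 24 h. Fits that left out WT replicate 1 or 2 called 1 and 2 members lowered.

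The BMP list had 3 lowered (13.6%) and 0 raised of 22 tested. Bmp4, which with LIF sustains self-renewal, had 20.6 and 23.7 CPM in WT, 5.21 CPM in clone 1 and 11.6 CPM in clone 2 (-1.43 ± 0.33, adjusted p = 0.0298). Bmp8a, a related ligand, was at -1.12 ± 0.17, and Id2, a target of BMP signals, was at -1.10 ± 0.28. The receptors Bmpr2 and Bmpr1a had -0.23 ± 0.11 and -0.27 ± 0.11 and were not called. Leaving out either WT replicate gave 0 lowered, and leaving out clone 1 gave 5.

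In the Wnt pathway 9 of 42 tested members fell (21.4%) and 1 rose, with a median of -0.29. Lef1, a DNA-binding partner of beta-catenin, had 64.5 and 109 CPM in WT and 20.8 and 28.0 CPM in Hdac3KO (-1.83 ± 0.26, adjusted p = 0.00554). Notum, a secreted Wnt deacylase induced by the pathway, had 44.7 and 50.9 CPM in WT and 11.7 and 19.8 CPM in Hdac3KO (-1.62 ± 0.23, adjusted p = 0.00615). Receptors and co-receptors that fell were Lgr4 (-1.20 ± 0.12), Lrp5 (-1.04 ± 0.16), Fzd1, Fzd2 and Ror1, and the remaining lowered members were Sp5, a target gene, and Wnt7b. Cdx1, a caudal homeobox gene that responds to Wnt and retinoic acid, went the other way, from 67.9 and 112 CPM to 332 and 233 CPM (1.65 ± 0.25, adjusted p = 0.00692). Ctnnb1, beta-catenin itself, had 462 and 475 CPM in WT and 575 and 605 CPM in Hdac3KO (0.33 ± 0.08). Of the 9 lowered, 4 were called at 24 h. Without WT replicate 1 or 2 the lowered count was 6 and 4, and it was 5 when 1 CPM was required in all samples.

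FGF and ERK signaling held 7 lowered (15.9%) and 6 raised (13.6%) of 44 tested. On the lowered side, the receptor Fgfr2 had 22.1 and 21.9 CPM in WT and 4.85 and 3.77 CPM in Hdac3KO (-2.33 ± 0.20, adjusted p = 0.00108), Fgf10 was at -3.29 ± 0.41 on 10 and 4 knockout reads, and the ligands Pdgfc, Nrg1 and Kitl, the intracellular FGF homologous factor Fgf13 and the carrier protein Fgfbp1 were lowered too. Among the raised ones, Etv4, an ETS factor usually induced by ERK, was close to silent in WT at 0.897 and 1.33 CPM and reached 37.2 and 30.8 CPM in Hdac3KO (4.93 ± 0.25, adjusted p = 0.000501). Pdgfrb, a PDGF receptor, rose from 2.99 and 3.75 CPM to 25.2 and 19.8 CPM (2.75 ± 0.23, adjusted p = 0.00102), and Erbb3, Hbegf, Nrg4 and Spred3 rose as well. Etv5, a close relative of Etv4, had 720 and 782 CPM in WT and 962 and 791 CPM in Hdac3KO and was not called (0.22 ± 0.11, adjusted p = 0.216), and neither was Fgf4, the main FGF ligand of ESCs (0.27 ± 0.15). Without WT replicate 1 or 2 the lowered count was 3 and 2 and the raised count 3 and 2.

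Interferon-stimulated genes encode antiviral effectors and are normally switched on by interferon signaling through a sequence called the interferon-stimulated response element. Of 40 tested, 12 were lowered (30%) and 2 raised (Mx1 and Oas1d), with a median of -0.43. Mx1, a GTPase that blocks viruses, lies on chromosome 16 and had 1.12 and 0.333 CPM in WT, 8.20 CPM in clone 1 and 3.09 CPM in clone 2. Ifitm1, a membrane protein that blocks viral entry, had 71.3 and 76.4 CPM in WT and 39.8 and 32.8 CPM in Hdac3KO (-1.02 ± 0.13, adjusted p = 0.0043). Irf1, a transcription factor of the response, had 21.1 and 21.6 CPM in WT and 8.68 and 9.86 CPM in Hdac3KO (-1.21 ± 0.17, adjusted p = 0.00539). Lgals3bp, a secreted glycoprotein, was at -1.99 ± 0.25. The groups did not overlap in any of these genes, as in all called genes. Rsad2 (viperin) and Irgm1 were almost absent from the knockout. Rsad2 had 31 and 39 reads in WT and 2 and 0 in Hdac3KO, a ratio of 39.1 with an exact 95% counting interval from 10.4 to 329. Irgm1, which was named after its values were seen, had 38 reads in all in WT and 2 in Hdac3KO, a ratio of 21.2 with an interval from 5.49 to 182. These intervals cover counting error only.

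Dtx3l, Parp9 and Parp14, which encode partners in ADP-ribosylation, lie on chromosome 16. Dtx3l had 44.7 and 41.0 CPM in WT, 18.1 CPM in clone 1 and 10.6 CPM in clone 2 (-1.56 ± 0.23, edgeR adjusted p = 0.00692). Parp14 had 21.3 and 15.6 CPM in WT, 6.82 CPM in clone 1 and 3.17 CPM in clone 2. Parp9 had 16.5 and 14.2 CPM in WT, 8.68 CPM in clone 1 and 6.17 CPM in clone 2. Dtx3l, Parp14 and Parp9 were thus below WT in each clone. A part of the chromosome-wide difference between the clones in these values was not tested. Without chromosomes 16 and X, 9 interferon-stimulated genes were lowered and 1 was raised. DESeq2 and the filter of 1 CPM in all samples also gave 9, and leaving out WT replicate 1 or 2 gave 3 and 4 lowered and 0 raised. At 24 h 8 of the 12 were called again. Members with higher levels were not called: Trim25 had 282 and 287 CPM in WT and 304 and 337 CPM in Hdac3KO (0.17 ± 0.09), and Ifitm2 had 244 and 222 CPM in WT and 240 and 201 CPM in Hdac3KO. Antigen presentation, often induced together with these genes, had 2 lowered (Erap1 and H2-K1) and 2 raised (H2-M5 and Cd74) of 18 tested, 11.1% each. Without WT replicate 1 or 2 the lowered count was 0 and the raised count 2 and 3, without clone 1 the counts were 4 and 3, and without clone 2 they were 2 and 4. Erap1, a peptidase that trims peptides for MHC class I, had 4.93 and 5.41 CPM in WT and 0.598 and 0.514 CPM in Hdac3KO (-3.18 ± 0.38, adjusted p = 0.00339). Cd74, the invariant chain of MHC class II, rose from 3.81 and 3.08 CPM to 19.4 and 15.3 CPM (2.33 ± 0.23, adjusted p = 0.00195).

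The response element was looked for as GAAA, any 2 bases and GAAA again on either strand of RefSeq promoter windows of GRCm38.p6, which run from 250 bases before to 50 bases after a gene start. It was found for 3 of the 9 lowered interferon-stimulated genes that have such a window (33.3%) and for 11 of the 23 uncalled ones (47.8%), against 3.40% of 9995 tested genes with a window and 4.41% of all lowered genes. A match describes the letters and not binding of a factor. The stretches of 2 genes that were nearly silent in the knockout are shown because they carry the element before the start, on the minus strand of chromosome 11 from 48871431 to 48871460 for Irgm1 and on the minus strand of chromosome 12 from 26456553 to 26456582 for Rsad2; capitals mark the element, which in Irgm1 is 2 overlapping copies and in Rsad2 lies on the opposite strand.
Irgm1: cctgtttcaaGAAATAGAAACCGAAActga
Rsad2: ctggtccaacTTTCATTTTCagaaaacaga

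Metabolic and glycan genes contributed further lowered members. Of 78 tested glycosyltransferases and related enzymes 11 fell (14.1%) and 3 rose. Fut9, which adds the fucose of the stem cell antigen SSEA-1, had 63.8 and 54.7 CPM in WT and 12.9 and 17.8 CPM in Hdac3KO (-1.96 ± 0.18, adjusted p = 0.00151). B3gnt3 and B3gnt7, which extend lactosamine chains, were at -1.52 ± 0.14 and -1.39 ± 0.20, and Large2, which extends the matrix-binding glycan of dystroglycan, was at -1.43 ± 0.17. At 24 h 8 of the 11 were called, and 5 and 4 were lowered without WT replicate 1 or 2, with 0 raised, and 18 were lowered without clone 1. Solute carriers, the largest list with 206 tested, had 11 lowered (5.34%) and 6 raised (2.91%), shares near those of all genes. These counts moved with the samples: 5 and 3 were lowered and 0 raised without WT replicate 1 or 2, and 19 and 16 were lowered without clone 1 or 2. Slc27a2, a fatty acid transporter, was the one with the smallest p, with 17.6 and 15.5 CPM in WT and 2.15 and 1.29 CPM in Hdac3KO (-3.22 ± 0.28, adjusted p = 0.00115).

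Genes of lipid metabolism were balanced, with 4 lowered and 4 raised of 48 (8.33% each). Lpl, lipoprotein lipase, had 35.6 and 33.0 CPM in WT and 11.97 and 8.49 CPM in Hdac3KO (-1.73 ± 0.19, adjusted p = 0.00266), and Sqle, an enzyme of cholesterol synthesis, was at -1.10 ± 0.11. Acacb, the mitochondrial acetyl-CoA carboxylase, rose from 81.3 and 64.6 CPM to 224 and 206 CPM (1.56 ± 0.13, adjusted p = 0.00103), and Cidea, a lipid droplet protein, rose at 2.63 ± 0.31. Fasn, fatty acid synthase, was not called at -0.27 ± 0.08. Of 33 hypoxia targets 6 fell (18.2%) and 2 rose. Ndrg1, a stress-responsive protein, had 16.7 and 10.9 CPM in WT and 2.27 and 2.40 CPM in Hdac3KO (-2.56 ± 0.29, adjusted p = 0.00274), and Bhlhe40 and Pfkfb3, a repressor and a glycolytic regulator, were at -1.54 ± 0.18 and -1.07 ± 0.16. Gys1, muscle glycogen synthase, rose at 1.12 ± 0.16, and Aldoa, a glycolytic enzyme with 1615 and 1530 CPM in WT and 2185 and 2202 CPM in Hdac3KO, stayed under the fold limit at 0.48 ± 0.07. Lowered hypoxia targets numbered 2 and 3, and raised lipid genes 2 in each case, without WT replicate 1 or 2.

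On the raised side, the genes with the smallest adjusted p were Efhc2, Dazl, Brdt, Rhox5, Etv4, Esx1, Jarid2 and Piwil2, followed by Trim44, Trp53inp1, Col9a2, Tex15 and Tbx3, which tied at 0.00066, and all 13 were called raised at 24 h. Efhc2, an X-linked protein of ciliary microtubules, had 11.7 and 9.57 CPM in WT and 107 and 105 CPM in Hdac3KO (3.31 ± 0.14, adjusted p = 0.000274). Esx1, a placental homeobox gene on the X chromosome, had 4.78 and 3.08 CPM in WT and 37.3 and 46.8 CPM in Hdac3KO (3.40 ± 0.24, adjusted p = 0.000586). Trim44, a protein of the TRIM family, had 30.6 and 33.2 CPM in WT and 94.1 and 104 CPM in Hdac3KO (1.64 ± 0.12, adjusted p = 0.00066). Of the 13, 3 are X-linked; over the X chromosome 36 of 509 tested genes rose (7.07%) and 22 fell (4.32%). The X-linked Rhox homeobox cluster was divided, with 3 raised and 2 lowered of 6 tested. Rhox5 had 135 and 128 CPM in WT and 428 and 393 CPM in Hdac3KO (1.64 ± 0.09, adjusted p = 0.000501). Rhox9 had 8.45 and 9.15 CPM in WT and 0.658 and 0.600 CPM in Hdac3KO (-3.78 ± 0.32, adjusted p = 0.00108), and its neighbor Rhox6 was at -3.29 ± 0.39. Genes of this cluster resemble each other and reads may have been shared among them, and without WT replicate 1 or 2 only 1 was raised and 0 lowered.

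**Figure D4:**
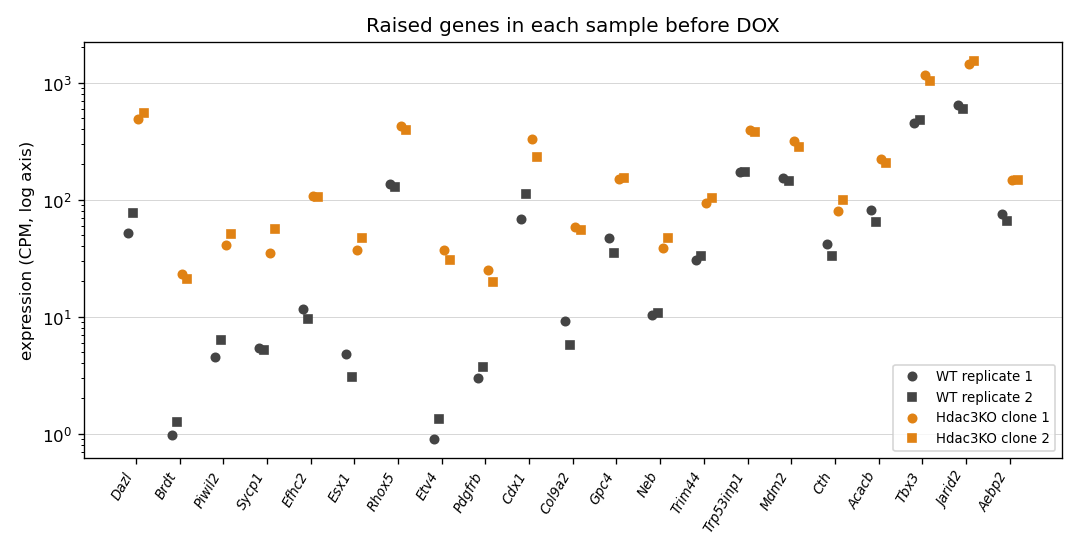
Expression of 21 raised genes in CPM on a log axis in each of the 4 samples before DOX (gray, WT replicates 1 and 2; orange, Hdac3KO clones 1 and 2). Both knockout samples lie above both WT samples in all 21 genes, as in all 353 raised genes. The 21 genes run from Brdt and Etv4, which were near 1 CPM in WT, to Jarid2 and Tbx3, which were already above 400 CPM.

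Genes of meiosis and germ cells had 31 of 55 tested raised (56.4%), the highest raised share of the lists with 10 or more members, 1 lowered (Tdrd12) and a median of 1.43. They span several functions: RNA-binding and piRNA proteins (Dazl, Ddx4, Piwil2, Mael, Asz1), the synaptonemal complex (Sycp1, Sycp2, Sycp3), meiotic cohesin (Smc1b, Stag3) and recombination (Dmc1, Hormad1, Rec114). Piwil2 had 4.56 and 6.32 CPM in WT and 40.9 and 50.5 CPM in Hdac3KO (3.07 ± 0.21, adjusted p = 0.000586), and Tex15 was at 1.67 ± 0.12. Markers of primordial germ cells were mixed. Of 6, Dppa3 and Prdm1 were called lowered and 0 raised. Prdm1 went from 16.8 and 13.7 CPM to 4.19 and 5.83 CPM (-1.62 ± 0.24, edgeR adjusted p = 0.00662). Kit, the best expressed of the 6, had 129.2 and 120.5 CPM in WT and 202.8 and 196.7 CPM in Hdac3KO. Its log2 fold change of 0.68 ± 0.09 passed the p threshold (edgeR adjusted p = 0.00527) but not the fold limit. The summed level of the 6 was 278 and 275 CPM in WT and 264 and 259 CPM in Hdac3KO. At 24 h, 28 of the 31 raised genes were called raised. The count was 16 without either WT replicate.

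Many germline promoters contain the E-box CACGTG, the letters bound by the repressor complex of MGA, MAX and E2F6 in ESCs. Within the RefSeq windows these letters, which read the same on both strands, occurred for 13 of the 27 raised germ cell genes with a window (48.1%) and for 5 of the 20 uncalled ones (25.0%), against 12% of tested genes, 17.4% of all raised and 8.54% of all lowered genes. As examples, stretches with the E-box in capitals are given for 4 raised genes of different function, at 107331104 to 107331133 on the plus strand of chromosome 5 for Brdt, 102936177 to 102936206 on the minus strand of chromosome 3 for Sycp1, 88459511 to 88459540 on the plus strand of chromosome 10 for Sycp3 and 112652322 to 112652351 on the minus strand of chromosome 13 for Ddx4. They show that the letters around the E-box differ from gene to gene.
Brdt: cgcaggcacagtCACGTGgcagaccctggc
Sycp1: tagagaacccggCACGTGggaagggaaatc
Sycp3: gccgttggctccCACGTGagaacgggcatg
Ddx4: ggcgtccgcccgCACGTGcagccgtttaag

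Beyond the germline, a part of the muscle genes was raised. Of 36 tested genes for muscle and sarcomere 11 rose (30.6%) and 3 fell. The list median was 0.49, with 0.53 in clone 1 and 0.16 in clone 2. The summed level of the 36 genes went down, from 1491 and 1312 CPM in WT to 958.5 and 990.9 CPM in Hdac3KO, a sum that includes Ttn, described below. Neb, the giant thin-filament protein nebulin, had 10.2 and 10.7 CPM in WT and 38.4 and 47.5 CPM in Hdac3KO (2.03 ± 0.16, adjusted p = 0.00101). Actn3, an actinin of fast muscle, had 0.673 and 0.999 CPM in WT and 5.80 and 4.97 CPM in Hdac3KO (2.69 ± 0.37, adjusted p = 0.00527). Lmod1, a leiomodin of smooth muscle, had 1 and 2 reads in WT and 53 and 29 in Hdac3KO, a ratio of 24.5 with an exact 95% counting interval from 8.08 to 121. Cryab, Hspb7, Synm, Mypn, Myom3, Cox7a1, Eno3 and Pygm were the other raised members. Titin and a ryanodine receptor did not follow them: Ttn had 534 and 319 CPM in WT and 83.9 and 121 CPM in Hdac3KO (-2.06 ± 0.26, adjusted p = 0.00387), Ryr2 was at -1.48 ± 0.20, and neither was called at 24 h, where Ttn had a log2 fold change of -0.84. At 24 h, 6 of the 11 raised members were called. With either WT replicate left out, 3 muscle genes were raised.

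Of 24 tested Hox, ParaHox and cofactor genes 4 rose (16.7%), Cdx1 and Hoxa3 among them, and Evx1 fell, from 5.31 and 6.49 CPM to 0.598 and 1.20 CPM (-2.75 ± 0.41, adjusted p = 0.00669). Without WT replicate 1 or 2, 2 and 1 were raised and 2 and 0 lowered. Without clone 1, 2 were raised, and 4 were lowered without either clone.

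Genes of 2 stress responses were raised more often than lowered. Of 31 targets of p53, 5 rose above the fold limit (16.1%) and 1 fell (Sfn), but 11 passed the p threshold upward with no fold limit, and the list median was 0.35. Trp53inp1, which promotes p53 activity, had 171 and 173 CPM in WT and 397 and 382 CPM in Hdac3KO (1.18 ± 0.09, adjusted p = 0.00066). Mdm2, the ubiquitin ligase that limits p53, had 153.4 and 145.1 CPM in WT and 319 and 285 CPM in Hdac3KO (1.02 ± 0.10, adjusted p = 0.0018). Pmaip1 (Noxa) and Bbc3 (Puma), death-promoting members of the BCL2 family, were at 1.43 ± 0.13 and 1.13 ± 0.16, and Plk2 was at 1.35 ± 0.13. Ccng1 passed the p threshold at 0.84 ± 0.10 and Trp53 itself had 910 and 982 CPM in WT and 753 and 944 CPM in Hdac3KO, with overlapping groups. Among 32 genes of the ATF4 and amino acid response 4 rose (12.5%), namely Cth, Ddit4, Mthfd2 and Ddit3, and 0 fell. With no fold limit, 12 passed the p threshold upward and 2 downward. Cth, cystathionine gamma-lyase, had 41.5 and 33.3 CPM in WT and 79.7 and 99.9 CPM in Hdac3KO (1.26 ± 0.16, adjusted p = 0.00398), and Asns, asparagine synthetase, had 604 and 588 CPM in WT and 893 and 865 CPM in Hdac3KO (0.56 ± 0.08). For comparison, 6.57% of all genes passed the p threshold upward and 7.52% downward with no fold limit. Leaving out WT replicate 1 or 2 gave 4 and 3 p53 targets and 2 and 1 ATF4 genes raised.

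Chromatin regulators were changed in both directions. Of 131 tested, 11 fell (8.40%), Hdac3 among them, and 5 rose, with 18 and 20 past the p threshold and a median of -0.02. Jarid2, a subunit of PRC2, rose from 640 and 596 CPM to 1437 and 1523 CPM (1.26 ± 0.08, adjusted p = 0.000586), and Aebp2, another accessory subunit of that complex, rose from 76.1 and 65.7 CPM to 147 and 148 CPM (1.06 ± 0.11, adjusted p = 0.00213). Scml2, a germline Polycomb protein, Sirt2, a deacetylase of another class, and Brdt were the other raised genes. Setbp1, a binding partner of the oncoprotein SET, had 9.27 and 7.49 CPM in WT and 0.957 and 0.686 CPM in Hdac3KO (-3.31 ± 0.34, adjusted p = 0.00206). The PRC1 subunit Bmi1 and the remodelers Smarca1, Smarca2, Chd3 and Arid1b also fell. Tet1, with over 700 CPM in every sample, had a log2 fold change of -0.45 ± 0.11 and was not called. In the fits without WT replicate 1 or 2, 6 chromatin regulators were lowered in each case and 5 and 3 were raised.

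After 24 h of DOX, given to induce Xist in WT and knockout cells, 364 of 12922 genes tested were lowered (2.82%) and 310 raised (2.40%). The paper reports less efficient silencing of X-linked genes in both knockout clones at this time. Its part in the X-linked genes at 24 h was not tested. The libraries at 24 h share no sample with those before DOX, but they come from the same line and the same clones, so properties of the clones recur in them. Of the 494 genes lowered before DOX, 478 were tested at 24 h and 287 of these (60.04%) were called lowered again; of the 353 raised genes 346 were tested and 217 (62.7%) were called raised. In the other direction 0 genes were called, and all 478 and all 346 had a log2 fold change of the same sign at both times. Seen from the later time point, 78.9% of its lowered and 70.0% of its raised genes had been called before DOX. The overlap includes the genes that led the lists, such as Map2 (-2.90 at 24 h), Sulf1 (-3.06), Cdh2 (-1.97), Fgfr2 (-2.59), Etv4 (4.76) and Brdt (3.98). It did not include Ttn, Ryr2 and Lgals3bp, which were called before DOX and had log2 fold changes of -0.84, -0.78 and -1.26 at 24 h; whether these differ between the time points was not tested.

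**Figure D5:**
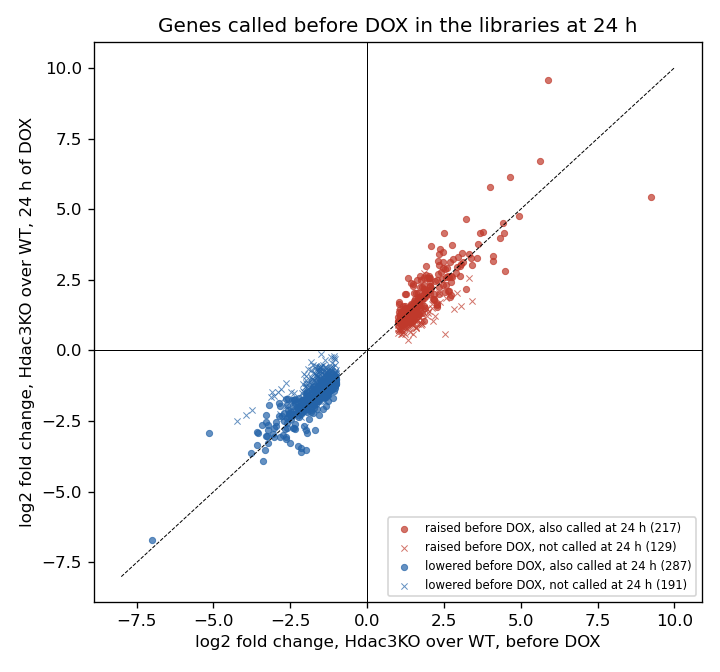
Log2 fold changes, Hdac3KO over WT, before DOX (horizontal axis) and after 24 h of DOX (vertical axis) for the 478 lowered (blue) and 346 raised (red) genes called before DOX and tested at both times; dots were called again in the same direction and crosses were not, and the dashed line marks equal values. All points lie on the lower left or the upper right; the most extreme ones belong to genes with a group at or near 0 reads, where the fitted value depends on the prior count.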

How the data were processed

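RNA of WT and Hdac3KO TX1072 cells at 0 h and 24 h of DOX was sequenced as rRNA-depleted paired-end libraries. Per the methods and processing notes, the authors mapped reads with TopHat2 (2.1.0), counted them by strand over exons with featureCounts (1.5.1), and used bedtools and the mm10 build. The deposited total counts per gene symbol were not normalized. The deposited d-score is a fraction, C57BL/6 reads over C57BL/6 plus Cast reads, and was used here only for medians by chromosome; the deposited allelic counts were not used. The counts were tested here with edgeR (4.0.16, R 4.3.3) and TMM for genes with 1 CPM or more in 2 or more of the 4 samples of a time point, with a call at a Benjamini-Hochberg adjusted p under 0.05 over all genes tested and an absolute log2 fold change above 1. For this comparison the authors kept genes above 1 TPM in 2 of 4 samples and used TMM with limma voom; a replicate block is not mentioned and none was used here. The count test and the CPM filter take the place of voom and the TPM filter. Total reads on genes at 24 h ran from 6940375 to 11377314. The reads of the 45S precursor Rn45s, 7.26% to 8.31% of all before DOX, were included and left out in an alternative. Replicates of a group differed by more than sampling noise (chi-square per degree of freedom 6.41 in WT, 13.1 in Hdac3KO), and p-values measure only the spread between these samples, which in WT may be technical. Single-clone values are log2((clone CPM + 0.5)/(WT mean CPM + 0.5)). Positions came from GENCODE M21 (GRCm38) for 23882 of 24542 symbols. Genes that overlap on the same strand may share reads. Named are Hdac3, Dazl, Brdt, the 10 genes with the smallest adjusted p in each direction, ties kept, and in each list up to 5 called members with the smallest adjusted p and uncalled members with high CPM; further members are named as examples after their values were seen. Some named members and 1 list are not reported here. Members, lists and rules were chosen with earlier results of these data known. Scripts were tested on simulated data. Alternatives used limma (3.58.1), DESeq2 (1.42.0), other filters and scalings, the replicate number as a block, no fold limit, and leaving out chromosomes 16 and X or each sample. Tables, intervals and plots were made in Python 3.11.15 with pandas 2.3.3 and numpy 2.4.6, scipy 1.17.1, and matplotlib 3.10.9.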

Additional observations from a re-analysis of the deposited data

How the results depend on the processing

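More genes were lowered than raised before DOX under each alternative tried. The 847 calls before DOX became 1827 with no fold limit, and the 674 calls after 24 h of DOX (364 lowered, 310 raised) became 1456 with no fold limit and 1063 with no filter on low counts. With 1 sample left out at a time, calls ranged from 275 to 1298 before DOX and from 213 to 1106 at 24 h, where leaving out clone 2 gave 526 raised and 485 lowered genes; the cause was not tested. Other totals before DOX were 720 with DESeq2, 805 with voom and limma, 847 with size factors of DESeq2 (RLE), 849 without Rn45s, 1232 with no filter, 673 with 1 CPM in all samples and 808 without chromosomes 16 and X. With the replicate number as a block, 1091 genes were called before DOX and 855 at 24 h. The replicate numbers are not stated to pair samples. The correlation across genes of the difference between replicates 1 and 2, WT with Hdac3KO, was 0.221. Called genes named here number 220. Of the called genes named, 24 lost the call in 1 or more settings that kept every sample, and 99 when 1 sample was left out. Uncalled genes that changed sign when 1 sample was left out had log2 fold changes from -0.11 to 0.13 (Fn1), -0.13 to 0.020 (Tfcp2l1), -0.21 to 0.054 (Ifitm2), -0.021 to 0.24 (Dppa5a), -0.32 to 0.0012 (Trp53) and -0.0763 to 0.0515 (Esrrb).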

Other observations

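Called genes outside the lists also held recognizable groups, which were picked after their values were seen and were not tested as groups. Signaling molecules known from immune cells went both ways. Jak3, a cytokine receptor kinase, had 57.3 and 53.2 CPM in WT and 17.95 and 18.01 CPM in Hdac3KO (log2 fold change -1.62 ± 0.13, edgeR adjusted p = 0.000875). Irak3, an inhibitor of Toll-like receptor signals, had 26.7 and 29.5 CPM in WT and 6.34 and 6.17 CPM in Hdac3KO (-2.16 ± 0.17). Ikzf1 (Ikaros), a lymphoid transcription factor, was lowered at -3.74 ± 0.45 on 9 and 4 knockout reads and was not called at 24 h. Laptm5, a lysosomal protein of blood cells, rose from 143 and 168 CPM to 379 and 366 CPM (1.26 ± 0.11), and Cd80, a costimulatory ligand on chromosome 16, rose from 2.84 and 2.25 CPM to 14.6 CPM in clone 1 and 11.3 CPM in clone 2 (2.35 ± 0.26).

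Among genes of growth control, Ccnd2 (cyclin D2) had 2.54 and 1.25 CPM in WT and 52.2 and 30.4 CPM in Hdac3KO (4.43 ± 0.37, adjusted p = 0.00108), and Rb1, the retinoblastoma protein that cyclin D kinases inactivate, rose at 1.01 ± 0.15. Akt1, a survival kinase, had 31.8 and 33.7 CPM in WT and 13.6 and 13.4 CPM in Hdac3KO (-1.28 ± 0.14) and was not called at 24 h. The receptors Notch3 and Rarg, the latter a retinoic acid receptor, rose at 1.70 ± 0.20 and 1.80 ± 0.16. Members of the Prame family expressed in early embryos and germ cells rose too, with Pramef8 at 1.42 ± 0.15 and Pramel6 at 2.46 ± 0.48, the latter from 10.6 and 10.7 CPM in WT to 28.4 CPM in clone 1 and 90.2 CPM in clone 2; genes of this family resemble each other and may share reads. A few genes had 0 reads in a group. Oasl2, an interferon-stimulated gene, had 34 reads in WT and 0 in Hdac3KO, at least 12.7-fold lower against a floor of 3 reads over the group, and Gip, an incretin hormone, had 0 reads in WT and 38 in Hdac3KO, at least 11.3-fold higher.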
